A study of Mus musculus with 21 samples.

Results

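Ribosomal protein genes were examined in 18 RNA-seq libraries of lineage-marked mouse β-cells, the insulin-secreting cells of the pancreatic islet. Members were the genes of the deposited expression table whose symbol is Rpl or Rps followed by a number, with paralogue endings, or Rplp0, Rplp1, Rplp2 or Rpsa. The rule found 73 of the 21913 genes in the table, 44 of the large ribosomal subunit and 29 of the small one. The test took in genes that averaged 1 or more on the normalized linear scale, which left 13501 genes with 70 members, 41 large and 29 small. Rpl10l, Rpl39l and Rpl3l were under that level. RefSeq holds 84 protein-coding symbols that fit the rule, and 72 of them are members. Rps3a is Rps3a1 in RefSeq. Rpl3, Rpl13, Rpl18, Rpl27, Rpl32l, Rpl35, Rpl36, Rpl36a, Rps2, Rps6 and Rps27 were not analysed here.

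The libraries comprised 8 Ldb1-KO, 5 Isl1-KO and 5 WT. LDB1 is an adaptor without DNA-binding activity that bridges LIM-homeodomain transcription factors, and ISL1 is such a factor. Ldb1-KO cells came from Ldb1L/L, Isl1-KO cells from Isl1L/L mice, and both carried Rosa26LsLeYFP/LsLeYFP and MIP-CreERTm. WT cells carried the same reporter and Cre. MIP stands for the mouse insulin promoter, and CreERTm needs tamoxifen to act, so deletion and label mark cells in which the transgene was active at dosing. The mice were male and of mixed SV/129 and C57Bl/6 background. Ldb1-KO and WT mice were taken at day 56 after 5 gavages of tamoxifen at 150 µg/g from day 28 and again from day 35. Isl1-KO mice were taken at day 49 after 5 gavages at 100 µg/g from day 28 alone. Genotype, age and tamoxifen dose therefore cannot be told apart in any comparison with the Isl1-KO libraries. The labels do not say that libraries came from separate mice, so the tests measure the spread between libraries, which may be technical.

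Each cytoplasmic ribosome is built from a small subunit, which decodes the mRNA, and a large subunit, which joins amino acids, and nearly every ribosomal protein is needed in equal number. Their mRNAs are among the most abundant of a cell. In mammals most begin with a run of pyrimidines at the 5′ end, the 5′-terminal oligopyrimidine or TOP motif, through which mTOR and LARP1 adjust their translation. Their promoters often lack a TATA box and carry sites of ETS-family factors such as GABPA and of YY1. β-cells translate proinsulin mRNA in large amounts.

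Start regions of members that the comparisons turn on are shown first. A pyrimidine run near the start was more frequent among members than among all genes with a RefSeq sequence. Each line gives 30 bases near the annotated transcription start, 5′ to 3′ on the gene's strand, with the longest run of C and T in capitals. The runs differ in length and place: that of Rps16 is short and that of Rps15a ends before the annotated start. Sequences and starts are RefSeq's for GRCm38.p6. Where a gene has several annotated starts, the one with the longest run is shown.
Rpl34 (chr3:130730330-130730359, minus strand): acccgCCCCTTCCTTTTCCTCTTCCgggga
Rpl15 (chr14:18270968-18270997, minus strand): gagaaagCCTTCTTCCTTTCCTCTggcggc
Rps15a (chr7:118116143-118116172, minus strand): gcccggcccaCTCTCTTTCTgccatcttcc
Rpl27a (chr7:109519186-109519215, plus strand): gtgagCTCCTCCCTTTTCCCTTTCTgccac
Rps18 (chr17:33955648-33955677, minus strand): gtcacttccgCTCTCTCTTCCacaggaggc
Rpl13a (chr7:45128722-45128751, minus strand): cgacaagaCCTCCTCCTTTCCCaggcggct
Rps24 (chr14:24490664-24490693, plus strand): ccgcgctggggTCCTTCCTTgcgcgttgat
Rpl22l1 (chr3:28805499-28805528, plus strand): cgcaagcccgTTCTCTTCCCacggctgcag
Rps16 (chr7:28350665-28350694, plus strand): gccgtaaagcccgCTTCTgtcgtgacgtag
Rpl38 (chr11:114668568-114668597, plus strand): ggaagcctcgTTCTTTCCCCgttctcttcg
The run was 20 bases long in Rpl34 and Rpl27a, 17 in Rpl15, 10 in Rps15a, 9 in Rps24 and 5 in Rps16. A run of at least 8 between 20 bases before and 40 bases after the start was present in 36 of the 55 members with a RefSeq sequence, or 65.5%, against 24.7% of all 27025 genes with such a sequence. The 27025 genes include genes outside the 13501 tested, so this background is not limited to genes expressed in these libraries. The ETS core CCGGAAG, read on both strands over 250 bases before to 50 after the start, was present in 23 of the 55, or 41.8%, against 9.93% of all genes. The YY1 core AAGATGG was present in 16.4% of members and in 7.28% of all genes. The TATA box letters TATAAA were present in 9.09% of members and in 15.7% of all genes. A match is a description of the letters and not a site of binding. The following 40-base stretches, with the core in capitals, lie upstream of Rpl15 and Rps18, which rose in Ldb1-KO libraries, of Rps25, which was lower in Isl1-KO than in Ldb1-KO libraries, and of Rpl38, which was not called against WT.
Rpl15 (chr14:18271025-18271064, minus strand): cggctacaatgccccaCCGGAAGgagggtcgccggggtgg
Rps18 (chr17:33955717-33955756, minus strand): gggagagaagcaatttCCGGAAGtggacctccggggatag
Rpl38 (chr11:114668540-114668579, plus strand): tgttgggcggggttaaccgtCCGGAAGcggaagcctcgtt
Rps25 (chr9:44407625-44407664, plus strand): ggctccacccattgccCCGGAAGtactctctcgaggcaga
The core began 62 bases before the start in Rpl15, 75 in Rps18, 20 in Rpl38 and 73 in Rps25.

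All values below are the authors' log2 normalized values. They are not known to be divided by gene length, so levels are compared between libraries and not between genes. The mean over the 18 libraries ran from 1.36 for Rpl28 to 11.7 for Rpl4 among the 70 tested members, with a median of 6.72. Reads of ribosomal protein mRNAs also match many near-identical pseudogenes, and how the authors' counting assigned such reads was not stated. A low value such as that of Rps16 is therefore uncertain as a level of the gene.

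The libraries differed in ways that bear on every count. The Ldb1 gene averaged 6.40 ± 0.42 in Ldb1-KO libraries and 7.51 ± 0.22 in WT libraries (SD, n = 8 and 5), a log2 difference of -1.11 ± 0.18 (SE, limma adjusted p = 4.35e-05). The Isl1 gene averaged 9.33 ± 0.26 in Isl1-KO libraries and 9.55 ± 0.11 in WT libraries (SD, n = 5 each), a difference of -0.22 ± 0.17 that did not pass the test (SE, limma adjusted p = 0.431). Both are values over the whole gene, in which the deleted exons are not seen apart. The mean of 11 β-cell markers was 9.24 to 10.5 in Ldb1-KO, 10.1 to 11.4 in Isl1-KO and 12.05 to 12.4 in WT libraries, so the labelled cell type was present throughout. The summed level of the α-cell markers on the log2 scale was 13.3 to 15.7 in Ldb1-KO, 12.9 to 13.9 in Isl1-KO and 10.9 to 11.8 in WT libraries. Acinar markers averaged 10.0 in WT replicate 1 and 1.25 to 1.75 in the other WT libraries, against 1.83 to 5.66 in Ldb1-KO and 1.30 to 4.43 in Isl1-KO libraries. Duct markers averaged 4.30 to 4.66 in Ldb1-KO, 3.78 to 4.70 in Isl1-KO and 3.38 to 4.22 in WT libraries, so every Ldb1-KO library was above every WT library. No defining marker of these lists was at 0 in all 18 libraries. In bulk RNA, fewer cells of a type and less RNA per cell cannot be told apart. The mean step between the lowest distinct values on the linear scale, which is larger in a shallower library, was 0.714 to 1.44 in Ldb1-KO, 0.971 to 1.45 in Isl1-KO and 0.715 to 1.22 in WT libraries. The part of cell mix and depth in the results below was not tested, except where values without particular libraries are given.

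In Ldb1-KO β-cells 12 of the 70 tested members rose against WT and 0 fell. Of all genes tested, 10.6% were called higher and 11% lower in this comparison, so the share of members called higher, 17.1%, was above the background and the share called lower was under it. The calls comprised 10 of 41 large-subunit members, or 24.4%, and 2 of 29 small-subunit members, or 6.9%. The median difference of the members was 0.15 on the log2 scale, against -0.01 for all genes tested, and 49 of the 70, or 70.0%, were positive, against 48.9% of all genes tested. At an unadjusted p under 0.05, 20 members differed in either direction, or 28.6%, against 33.3% of all genes tested. Calls used limma over all 13501 genes with Benjamini-Hochberg adjustment at 0.05.

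Rpl34, a protein of the large subunit, rose most. Its log2 value in Ldb1-KO libraries was 4.98 at the lowest, 5.92 at the median and 6.59 at the highest, against 4.79, 3.62, 5.98, 3.04 and 4.41 in WT libraries. WT replicate 3 lay within the Ldb1-KO range and the other WT libraries lay below it. The difference was 1.59 ± 0.43 (SE, limma adjusted p = 0.0108), which is 3.02-fold on the value + 1 scale, and all 8 Ldb1-KO libraries were above the WT mean. The call was lost in 4 of 13 other settings. These were the replicate numbers as a block, the deeper libraries alone, the shallower libraries alone, and the fit without Ldb1-KO replicates 3 and 4 and WT replicate 4.

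Rpl17, which lines the tunnel through which the new protein leaves the ribosome, was 4.02 at the lowest, 4.61 at the median and 4.91 at the highest in Ldb1-KO libraries, against 3.89, 3.62, 3.18, 4.24 and 3.45 in WT libraries. The ranges overlapped through the lowest Ldb1-KO library, replicate 4, and the highest WT library, replicate 4. The difference was 0.91 ± 0.24 (SE, limma adjusted p = 0.00795).

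Rps15a, a small-subunit protein, was 7.64 at the lowest, 7.99 at the median and 8.31 at the highest in Ldb1-KO libraries, against 7.38, 6.78, 7.43, 7.60 and 7.08 in WT libraries. Every Ldb1-KO library lay above every WT library. The difference was 0.68 ± 0.17 (SE, limma adjusted p = 0.00634). Rpl15, of the large subunit, was 8.38 at the lowest, 8.71 at the median and 9.002 at the highest in Ldb1-KO libraries, against 8.19, 8.01, 8.13, 7.96 and 8.07 in WT libraries. The groups did not overlap, and the difference was 0.62 ± 0.17 (SE, limma adjusted p = 0.0104). Rps15a and Rpl15 were the only members whose Ldb1-KO libraries all lay above all WT libraries, which held for 4.89% of all genes tested. For 0 members did every Ldb1-KO library lie below every WT library, which held for 5.89% of all genes tested.

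Rpl30 was 5.91 at the lowest, 6.78 at the median and 7.59 at the highest in Ldb1-KO libraries, against 6.95, 6.45, 5.61, 5.68 and 5.61 in WT libraries. Its groups overlapped, because WT replicates 1 and 2 lay inside the Ldb1-KO range, and the difference was 0.79 ± 0.25 (SE, limma adjusted p = 0.0246). Rps18, of the small subunit, was 6.03 at the lowest, 6.65 at the median and 7.54 at the highest in Ldb1-KO libraries, against 5.82, 6.40, 6.16, 5.17 and 6.47 in WT libraries. All 8 Ldb1-KO libraries were above the WT mean, with a difference of 0.72 ± 0.23 (SE, limma adjusted p = 0.0265). Rpl27a was 7.05 at the lowest, 7.48 at the median and 7.76 at the highest in Ldb1-KO libraries, against 7.03, 6.49, 6.99, 7.09 and 6.49 in WT libraries. Only WT replicate 4 lay within the Ldb1-KO range, and the difference was 0.66 ± 0.21 (SE, limma adjusted p = 0.024).

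The other 5 calls were smaller. Rpl37 differed by 0.55, Rpl37a by 0.55, Rpl7 by 0.47, Rpl13a by 0.44 and Rpl4 by 0.33 on the log2 scale, with limma adjusted p between 0.0304 and 0.0415. Rpl13a is known, apart from the ribosome, as a part of a complex that silences inflammatory mRNAs in human monocytes. Rpl4 narrows the exit tunnel. Each of these 5 genes lost its call in between 5 and 10 of the 18 fits that left out a library, Rpl30 and Rps18 in 3 each and Rpl27a in 2, whereas Rpl15, Rpl17, Rpl34 and Rps15a were called in all 18. In 5 of the 18 fits the library left out was an Isl1-KO library, which enters this comparison only through the shared fit. The count of members called higher dropped to 6 when Ldb1-KO replicate 4 was left out, beside 9.74% of all genes. It dropped to 6 without WT replicate 2, beside 9.48%, and to 5 without WT replicate 5, beside 8.52%. In each of these fits the share of the 70 members was under the background. Without WT replicate 1, the library with high acinar markers, the count was 9, beside 8.57% of all genes. Within the 9 deeper libraries alone it was 4 of 70, against 7.89% of all genes, so there the share of members was not above the background. Within the 9 shallower libraries alone it was 0, against 5.80% of all genes, with 2 members called lower, against 6.31%. The authors' deposited table called 5 members higher and 0 lower at an FDR of 0.05, against 8.24% of the same genes higher and 11% lower.

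**Figure D1:**
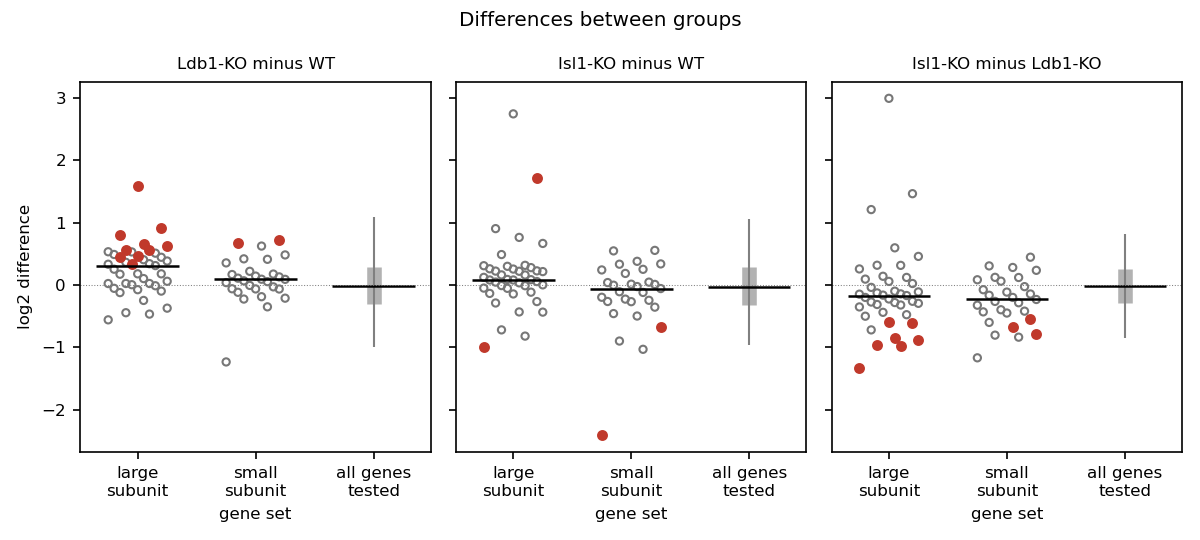
Log2 difference between groups for the members of the large and small subunit, 1 point each, in 3 comparisons. Filled points passed the limma test at an adjusted p of 0.05, black lines are medians, and the grey bar and line give the middle 50% and 90% of all genes tested. The filled points of Ldb1-KO minus WT are all above 0 and 10 of the 12 belong to the large subunit. That subunit holds 41 of the 70 tested members.

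In Isl1-KO β-cells 1 member rose against WT and 3 fell. Of all genes tested, 7.02% were called higher and 8.39% lower, 15.4% in all, so both shares of members, 1.43% and 4.29%, were under the background. The median difference was 0.04 on the log2 scale, against -0.03 for all genes tested, and 11 members, or 15.7%, had an unadjusted p under 0.05, against 29.1% of all genes tested. The comparison shares its WT libraries with the comparison above.

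Rpl34 was the member that rose. It was 6.21, 4.81, 5.42, 6.92 and 7.04 in Isl1-KO libraries, against 4.79, 3.62, 5.98, 3.04 and 4.41 in WT libraries. Isl1-KO replicates 1, 4 and 5 lay above every WT library and replicates 2 and 3 did not. The difference was 1.71 ± 0.48 (SE, limma adjusted p = 0.02), and the call was lost when WT replicate 2 or WT replicate 4 was left out. It was also lost in 7 of 15 other settings, among them no filter, only the compared groups, the replicate numbers as a block, and Isl1-KO replicates 1 to 3 alone. Single libraries also decided the count of lower members, which was 1 when WT replicate 3 or WT replicate 4 was left out.

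Rps16, a small-subunit protein whose tail reaches the tRNA in the decoding centre, was listed at 0 in Isl1-KO replicates 1, 2, 3 and 5 and at 0.94 in replicate 4. WT libraries were at 2.64, 2.55, 2.55, 1.98 and 3.25, so the groups did not overlap. Ldb1-KO libraries were listed at 0, 0, 1.00, 0, 2.20, 3.06, 1.69 and 2.92, where replicates 1, 2 and 4 were at 0 and replicates 5, 6 and 8 within the WT range. The Isl1-KO difference was -2.40 ± 0.57 on the log2(value + 1) scale (SE, limma adjusted p = 0.00553) and stayed called in all 18 fits that left out a library. In 8 of these fits the library left out was an Ldb1-KO library, outside this comparison. These are values of a few count steps, and no fold is given against a group listed at 0.

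Rpl22l1, the paralogue of Rpl22 whose mRNA Rpl22 is known to repress in mice, was 5.05, 5.23, 5.32, 7.25 and 6.66 in Isl1-KO libraries, against 6.96, 6.69, 6.89, 7.06 and 6.91 in WT libraries. Isl1-KO replicates 1 to 3 lay below all WT libraries, while replicate 4 lay above them and replicate 5 just under. The difference was -0.999 ± 0.31 (SE, limma adjusted p = 0.0349). Among the fits that left out 1 of the 5 Isl1-KO or 5 WT libraries, the call was lost in 7. These were the fits without Isl1-KO replicate 1, 2 or 3 or WT replicate 1, 3, 4 or 5. Rpl22 itself was 8.31, 8.45, 8.51, 9.64 and 9.69 in Isl1-KO libraries, against 9.31, 8.72, 9.25, 9.16 and 8.88 in WT libraries, a difference of -0.15 that did not pass the test (limma adjusted p = 0.734). Its Isl1-KO libraries fell into the same sets, with replicates 1 to 3 lower than replicates 4 and 5.

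Rps24, a small-subunit protein whose human counterpart is mutated in Diamond-Blackfan anaemia, was 8.83, 8.15, 8.15, 7.55 and 7.61 in Isl1-KO libraries, against 8.37, 8.45, 8.99, 9.07 and 8.77 in WT libraries. Here replicates 4 and 5 were the lowest and replicate 1 lay inside the WT range, the reverse of the order in Rpl22l1. The difference was -0.67 ± 0.20 (SE, limma adjusted p = 0.0245). Among the fits that left out an Isl1-KO or WT library, the call was lost in 4, those without Isl1-KO replicate 4 or 5 or WT replicate 3 or 4.

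The Isl1-KO libraries were thus far apart from each other in these genes. With Isl1-KO replicates 1 to 3 alone, 0 members were called higher and 10 of 70 lower against WT, beside 9.80% and 11.3% of all genes, and Rpl22l1 differed by -1.70 (limma adjusted p = 3.43e-06). With replicates 4 and 5 alone, 4 members were called higher and 1 lower, beside 3.78% and 4.47% of all genes, Rpl22l1 differed by 0.05 (limma adjusted p = 0.939) and Rps24 by -1.15 (limma adjusted p = 0.00106). This split was chosen with earlier results of these data known. β-cell markers averaged 11.05, 11.2 and 11.4 in Isl1-KO replicates 1 to 3 and 10.1 and 10.9 in replicates 4 and 5. Markers of δ- and PP-cells, other cells of the islet, averaged 6.28, 6.72 and 6.36 in replicates 1 to 3 and 4.67 and 5.18 in replicates 4 and 5. Acinar markers averaged 1.80, 1.57 and 1.30 against 2.42 and 4.43, while duct markers overlapped between the sets. The part of cell mix in the split was not tested.

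Rpl29, Rpl38 and Rps20 had all Isl1-KO libraries above all WT libraries, which held for 4.47% of all genes tested, but none passed the limma test. Rpl29 was 7.21, 7.62, 7.18, 7.495 and 7.80 in Isl1-KO libraries, against 1.32, 5.48, 6.07, 4.90 and 5.82 in WT libraries, a difference of 2.74 ± 1.15 (SE, limma adjusted p = 0.124). In Ldb1-KO libraries it was 1.00 at the lowest, 5.59 at the median and 6.46 at the highest, with replicates 3, 4 and 6 at 2.17, 1.00 and 2.28. The authors' deposited table gave Rpl29 a log2 fold change of 2.07 at an FDR of 2.19e-06 in Isl1-KO over WT. Rpl38, which in mice is needed for translation of Hox mRNAs, was 7.97, 7.61, 7.49, 7.58 and 7.64 in Isl1-KO libraries, against 7.10, 6.54, 7.11, 5.94 and 7.10 in WT libraries, a difference of 0.90 that did not pass the test (limma adjusted p = 0.358). In the authors' deposited table Rpl38 had a log2 fold change of 0.62 at an FDR of 0.0425. Rpl11 and Rps16 had all Isl1-KO libraries below all WT libraries, which held for 6.22% of all genes tested.

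**Figure D2:**
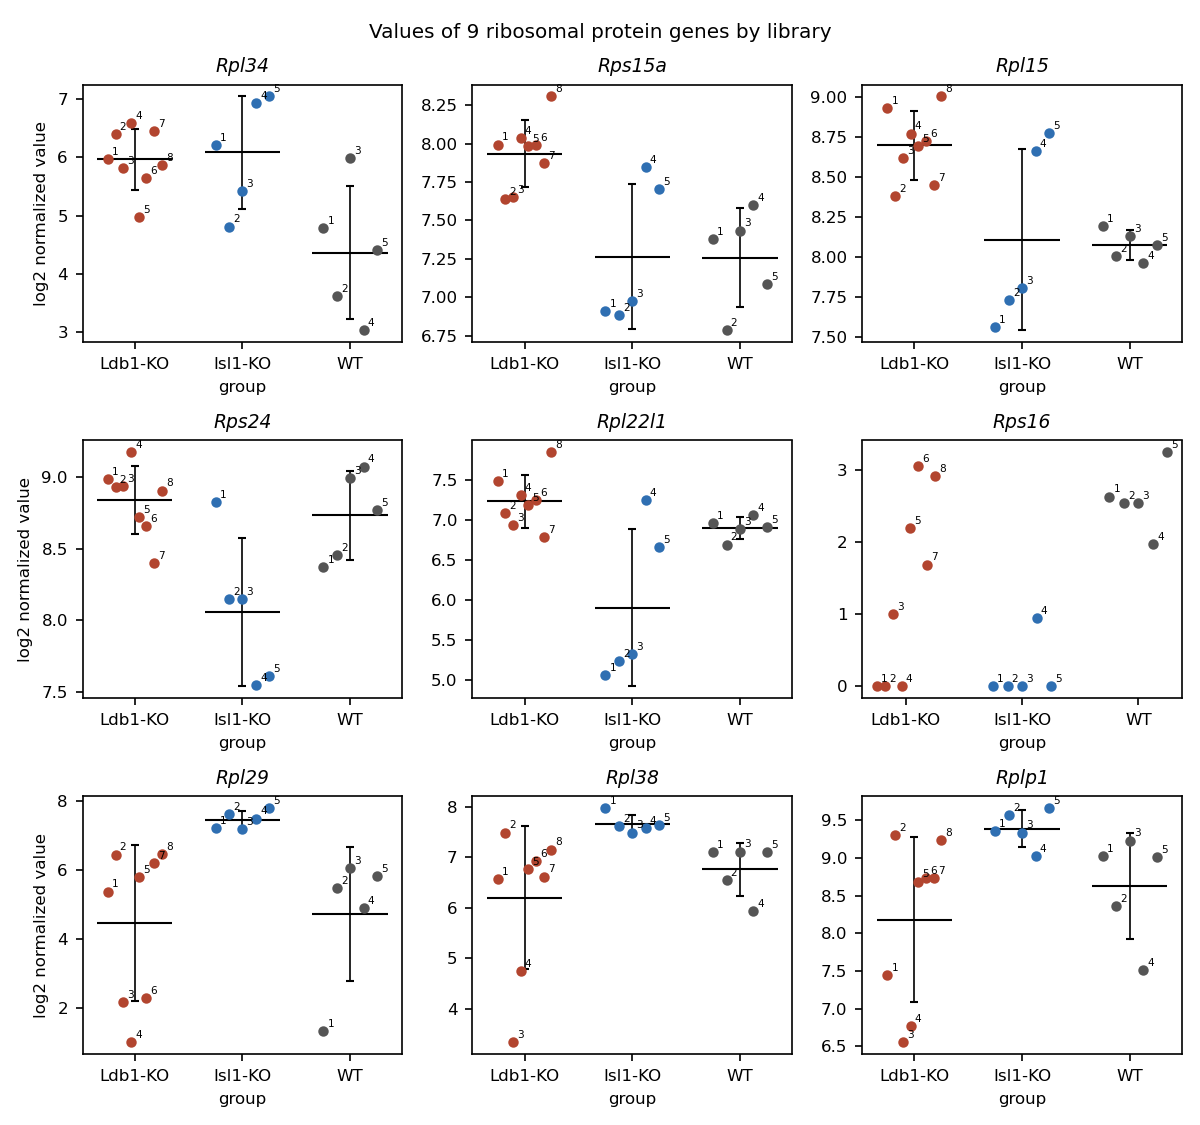
Log2 normalized value of 9 members in every library, 1 point a library with its replicate number, by group. Lines are means and bars are SD, left out for Rps16, which is listed at 0 in several libraries. All Ldb1-KO points of Rps15a and Rpl15 are above the WT points, Isl1-KO replicates 4 and 5 stand apart from replicates 1 to 3 in Rps15a, Rpl15 and Rpl22l1, and Rpl29, Rpl38 and Rplp1 are low in Ldb1-KO replicates 3 and 4.

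Against Ldb1-KO libraries, 0 members were higher in Isl1-KO libraries and 10 were lower. Of all genes tested, 6.31% were called higher and 6.96% lower, and the share of members called lower was 14.3%. The members were Rpl22l1, Rpl37a, Rps24, Rpl35a, Rpl17, Rps15a, Rps25, Rpl15, Rpl37 and Rpl9, 7 of the large and 3 of the small subunit. The comparison shares its libraries with those above. Rpl22l1 differed most, at -1.33 ± 0.28 (SE, limma adjusted p = 0.00322). Rpl37a was 4.38, 4.68, 5.28, 5.15 and 5.18 in Isl1-KO libraries, against 5.33 at the lowest, 5.73 at the median and 6.40 at the highest in Ldb1-KO libraries. Its groups did not overlap, and it was the 1 member with all Isl1-KO libraries below all Ldb1-KO libraries, against 2.49% of all genes tested. Rpl29 was the 1 member with all Isl1-KO libraries above, against 2.29% of all genes tested. The Rpl37a difference was -0.84 ± 0.19 (SE, limma adjusted p = 0.00476). Rpl35a was 4.74, 4.60, 5.13, 6.28 and 5.78 in Isl1-KO libraries, against 5.68 at the lowest, 6.30 at the median and 6.69 at the highest in Ldb1-KO libraries, with replicates 4 and 5 inside that range. With Isl1-KO replicates 1 to 3 alone 22 members were called lower, beside 12.4% of all genes, and with replicates 4 and 5 alone 1 was, beside 1.13% of all genes. Leaving out only Isl1-KO replicate 1, 2 or 3 gave 6, 6 and 5, beside 4.39%, 4.81% and 4.16% of all genes. Within the 9 shallower libraries alone 6 members were higher and 2 lower, beside 4.56% and 3.41% of all genes. Within the 9 deeper libraries alone 0 were higher and 2 lower, beside 1.75% and 1.99%. The authors' deposited table called 1 member higher and 9 lower, against 4.53% and 5.33% of the same genes. The Rpl15 difference was -0.59 over all Isl1-KO libraries and 0.02 with replicates 4 and 5 alone (limma adjusted p = 0.972).

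None of the stalk proteins, Rpsa, Rpl5 or Rpl11 passed the test against WT. Rplp0, Rplp1 and Rplp2 form the stalk that recruits elongation factors. Rplp0 differed by 0.02, Rplp1 by -0.45 and Rplp2 by 0.02 in Ldb1-KO against WT, and by 0.08, 0.76 and 0.04 in Isl1-KO against WT, and no difference passed the test. Rpsa, also known as the laminin receptor precursor, differed by -0.07 in Ldb1-KO and 0.38 in Isl1-KO against WT, without passing the test. Rpl5 and Rpl11 bind 5S rRNA and, when free, the p53 regulator MDM2. Rpl5 was 5.29 at the lowest, 5.86 at the median and 6.07 at the highest in Ldb1-KO libraries, against 4.73, 5.54, 5.66, 5.70 and 4.77 in WT libraries, a difference of 0.51 that did not pass the test (limma adjusted p = 0.0644). Rpl11 was 2.87, 2.82, 2.23, 3.44 and 3.01 in Isl1-KO libraries, against 4.11, 3.62, 3.46, 3.70 and 3.59 in WT libraries. Every Isl1-KO library of Rpl11 was below every WT library, with a difference of -0.82 that did not pass the test (limma adjusted p = 0.0708).

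Among paralogues, Rps27l, a p53 target in human cells, differed by 0.14 in Ldb1-KO and by -0.005 in Isl1-KO against WT, and Rpl7l1 by -0.08 and -0.12, without passing the test. Rpl10 differed by 0.00 in Ldb1-KO and -0.44 in Isl1-KO against WT, Rpl39 by 0.31 and 0.08, and Rps4x by 0.48 and -0.12, none past the threshold. Rpl10l, a testis paralogue of Rpl10, was listed at 0 in all 18 libraries. Rpl39l, also a testis paralogue, was listed at 0 in all Ldb1-KO and Isl1-KO libraries and at 1.16 in WT replicates 2 and 3. Rpl3l, the paralogue of heart and skeletal muscle, was listed at 0 in 4 of 8 Ldb1-KO, 4 of 5 Isl1-KO and 2 of 5 WT libraries.

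Beyond single genes, the members moved together from library to library. The mean over the 70 tested members of each log2 value minus its WT mean was 0.05, 0.22, -0.38, -0.08, 0.32, 0.43, 0.21 and 0.66 in Ldb1-KO replicates 1 to 8. It was -0.28, -0.16, -0.17, 0.36 and 0.35 in Isl1-KO and 0.17, -0.15, 0.14, -0.14 and -0.02 in WT libraries. The Ldb1-KO libraries thus ran from replicate 3 at the low end to replicate 8 at the high end, and the Isl1-KO libraries fell into a low set of 3 and a high set of 2. The same mean over all genes tested stayed between -0.02 and 0.02 in every library. The values were read as quantile-normalized, that is, given a shared distribution, which by itself holds that mean nearly equal. Ldb1-KO replicate 8 was the highest of its group in 39 of the 70 members, against 20.1% of all genes tested, and replicate 3 the lowest in 32, against 22.9% of all genes tested. Isl1-KO replicate 1 was the lowest of its group in 34 members, against 21.9% of all genes tested, and replicates 4 and 5 were the highest in 27 and 29, against 23.5% and 22.7% of all genes tested.

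**Figure D3:**
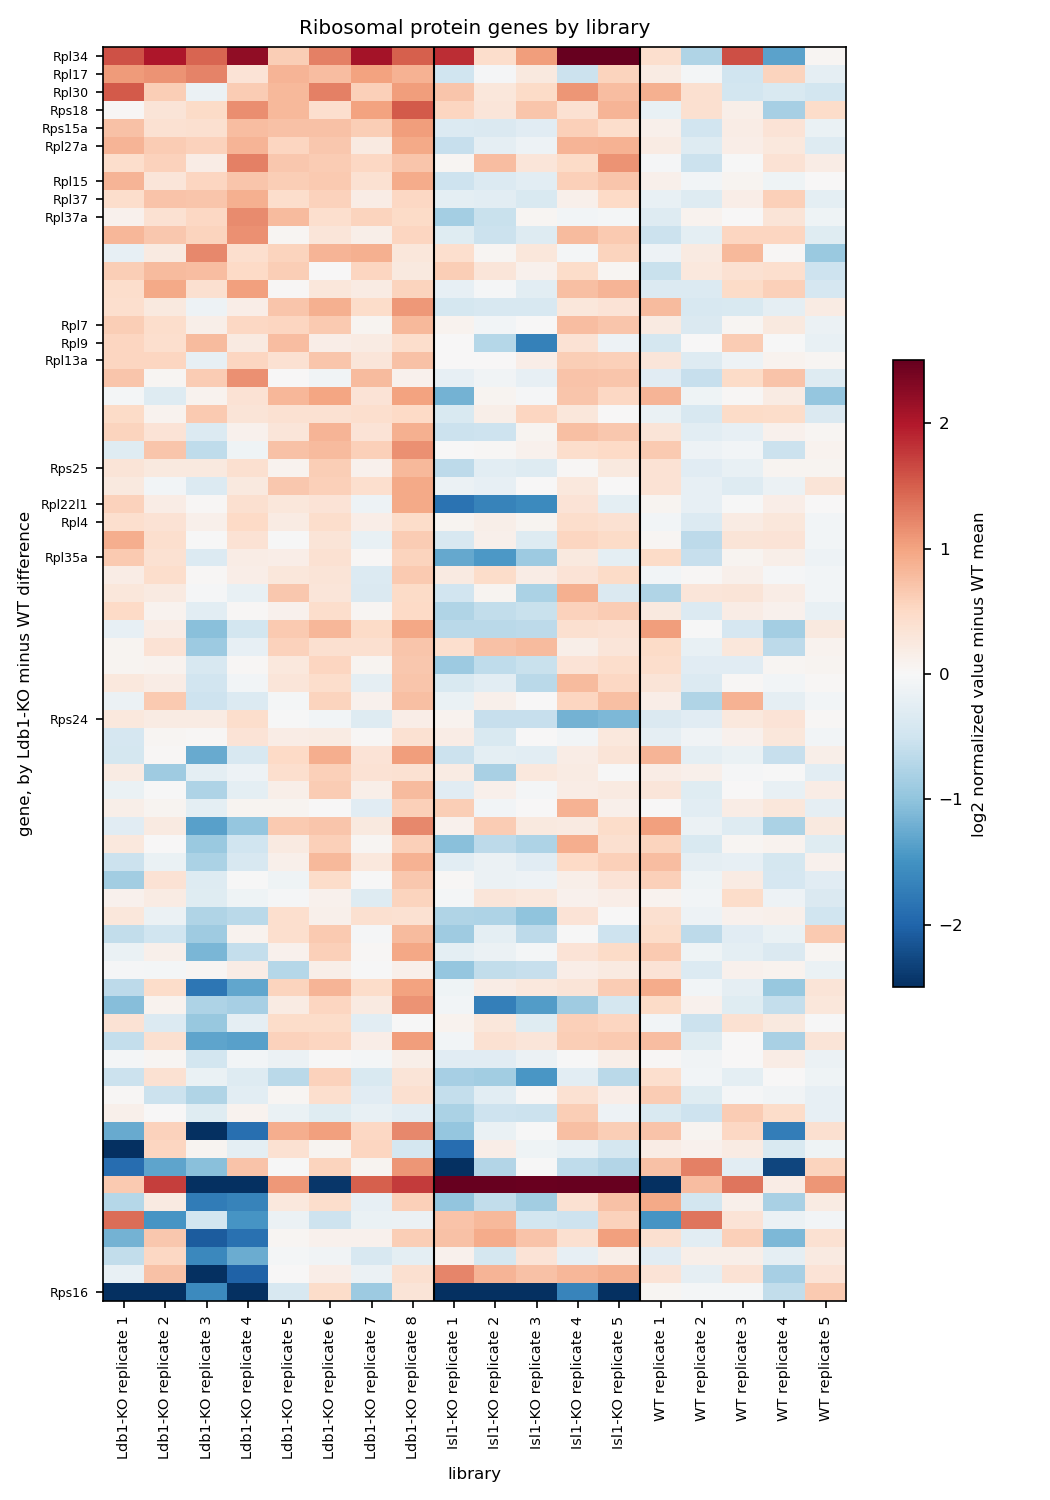
Log2 normalized value minus the WT mean for 70 members in rows, ordered by the Ldb1-KO minus WT difference, and 18 libraries in columns, colours cut at 2.5 either way. Black lines part Ldb1-KO, Isl1-KO and WT libraries. Ldb1-KO replicate 8 is red in most rows, Ldb1-KO replicate 3 and Isl1-KO replicates 1 to 3 are blue in many, and Rpl34, which rose most in Ldb1-KO, is the top row. Names are given for members called in any comparison.

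After the mean of each group was taken off, the correlation between pairs of members over the 18 libraries had a median of 0.305 over 2415 pairs, and 29.6% of pairs were above 0.5. Over all pairs of genes tested the median was 0.00 and 8.5% were above 0.5. The members' median lay below that of 2 other lists, oxidative phosphorylation subunits with 0.567 and 56.4% above 0.5, and mitochondrial ribosomal proteins with 0.415 and 38.1% above 0.5. It lay above those of translation factors, 0.262, and ribosome biogenesis genes, 0.128. Pairs within the small subunit had a median of 0.421, pairs within the large subunit 0.252 and pairs across the subunits 0.289. The points share library, depth and normalization, so these are descriptions. The first component of the group-centred values held 41.7% of the members' variance, with Ldb1-KO replicate 3 at its low end at -6.76 and Ldb1-KO replicate 8 at its high end at 5.14. The median was 0.253 without Ldb1-KO replicate 3 and 0.258 without Ldb1-KO replicate 8.

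**Figure D4:**
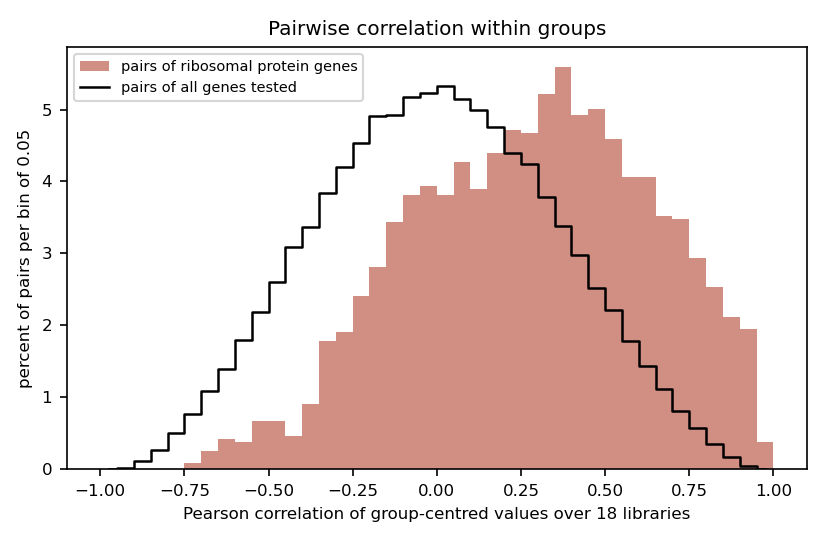
Share of gene pairs by the Pearson correlation of their group-centred log2 values over 18 libraries, in bins of 0.05, for pairs of members (bars) and of all genes tested (line). The members' pairs centre at 0.305 and those of all genes at 0.

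Rps27l and Rps3 were among the members with the highest mean correlation with the others, at 0.487 and 0.484. Rps3 lies at the entry of the mRNA channel. Rps24 at -0.284, Rpl5 at -0.222 and Rpl28 at -0.12 had the lowest. Rps24 thus varied, on average, against the other members between libraries. Rps3 was 9.46, 9.74, 9.81, 10.7 and 10.8 in Isl1-KO libraries, against 10.8, 10.1, 10.1, 10.4 and 10.4 in WT libraries, with Isl1-KO replicates 4 and 5 the high ones of their group. Rpl28 was at or near 0 in many libraries, where counting error is large.

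Members differed in how much they varied. The SD within groups had a median of 0.446 over the members and 0.366 over all genes tested, and the largest was 1.84 for Rpl29. Rpl38, Rplp1, Rps7, Rpl8 and Rpsa shared a pattern in which Ldb1-KO replicates 3 and 4 and WT replicate 4 were low, and these genes were picked after their values were seen. Rplp1 was 7.44, 9.31, 6.55, 6.77, 8.69, 8.74, 8.73 and 9.24 in Ldb1-KO replicates 1 to 8, against 9.02, 8.37, 9.23, 7.51 and 9.02 in WT replicates 1 to 5. Rpl8 was 9.02, 10.1, 7.87, 8.36, 10.2, 10.5, 10.1 and 10.7 in Ldb1-KO libraries, against 10.6, 9.60, 9.43, 8.72 and 9.99 in WT libraries. Rps7 was 5.06, 6.89, 3.70, 4.43, 7.22, 7.33, 6.84 and 7.52 in Ldb1-KO libraries, against 7.03, 6.38, 6.84, 4.60 and 6.72 in WT libraries. That mean step between the lowest values was, in the same 3 libraries, 1.38, 1.22 and 1.22, toward the shallow end. Ldb1-KO replicate 1, at a step of 1.44, was low in Rplp1, Rpl8 and Rps7 too, but less so. Isl1-KO replicate 1, at 1.45, was the highest of its group in Rpl38 and the lowest in Rpl8, Rps7 and Rpsa. The part of depth in the pattern was not tested. Without Ldb1-KO replicates 3 and 4 and WT replicate 4, 9 members were called higher and 0 lower in Ldb1-KO against WT. Of all genes, 8.78% were higher and 9.24% lower there. This alternative was added after the data were seen.

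The libraries at the ends stood apart also in other gene lists. Subunits of oxidative phosphorylation, the mitochondrial machinery of ATP synthesis, had a mean deviation of -0.59 in Ldb1-KO replicate 3, 0.51 in Ldb1-KO replicate 8, and -0.42, -0.44 and -0.40 in Isl1-KO replicates 1 to 3. Mitochondrial ribosomal proteins were at -0.38, 0.38, and -0.40, -0.46 and -0.30 in those libraries. Pairs of a member and an oxidative phosphorylation gene had a median correlation of 0.405, pairs with a mitochondrial ribosomal protein 0.356, pairs with a translation factor 0.266 and pairs with a ribosome biogenesis gene 0.0837. Pairs with a regulator of ribosome synthesis had a median of -0.118.

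**Figure D5:**
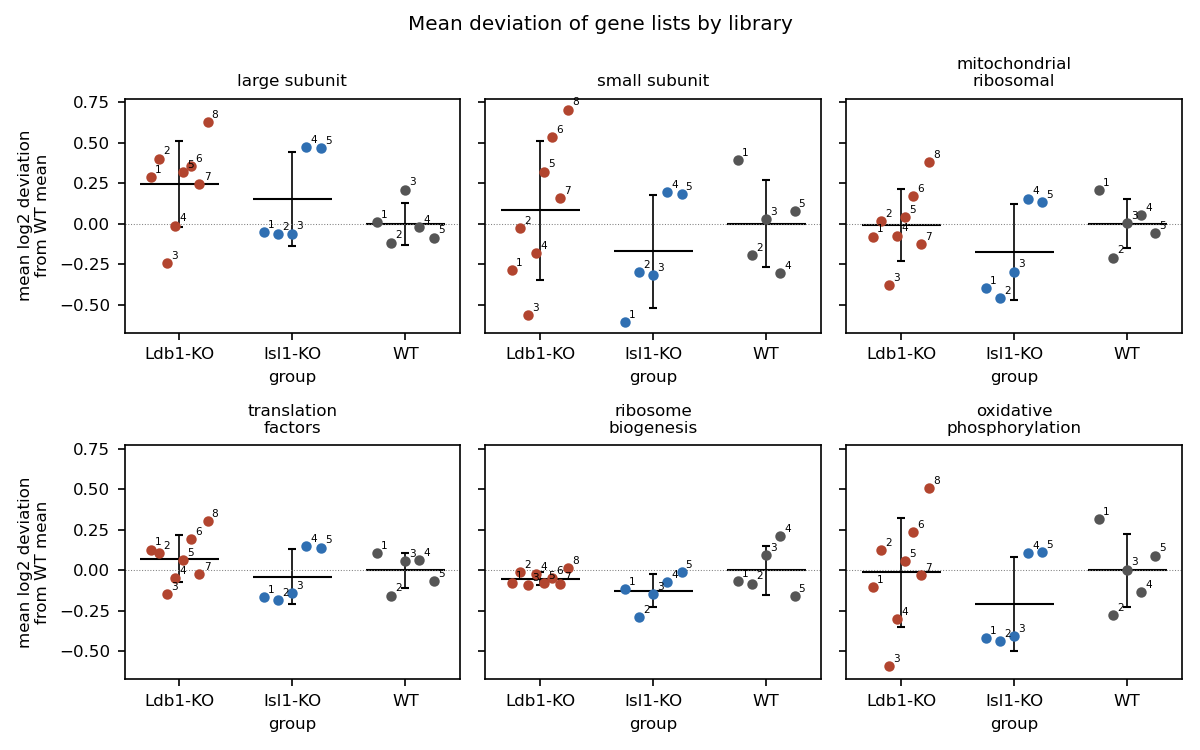
Mean log2 deviation from the WT mean of 6 gene lists in every library, 1 point a library with its replicate number, by group. Lines are means and bars SD. Ldb1-KO replicate 8 is the highest and replicate 3 the lowest of the Ldb1-KO libraries for both subunits, mitochondrial ribosomal proteins, translation factors and oxidative phosphorylation, while in ribosome biogenesis the Ldb1-KO libraries lie between -0.09 and 0.01.

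The other genes of the pathway changed in small numbers. Of all genes tested, 10.6% were called higher and 11% lower in Ldb1-KO against WT, and 7.02% and 8.39% in Isl1-KO against WT, which is the background of each count that follows. Of 82 ribosome biogenesis genes, 4 rose and 6 fell in Ldb1-KO against WT, and 1 rose and 7 fell in Isl1-KO against WT. Npm1, a nucleolar chaperone of ribosome assembly, rose by 0.75 ± 0.14 in Ldb1-KO (SE, limma adjusted p = 0.000365) and by 0.61 ± 0.16 in Isl1-KO (SE, limma adjusted p = 0.0105) against WT. Nob1, the nuclease that completes 18S rRNA, averaged 4.30 ± 0.23 in Isl1-KO and 5.52 ± 0.12 in WT libraries (SD, n = 5 each), a difference of -1.22 ± 0.23 (SE, limma adjusted p = 0.000712). Of 71 mitochondrial ribosomal proteins, 1 rose and 1 fell in Ldb1-KO, and 0 rose and 4 fell in Isl1-KO. Mrpl1 rose by 0.94 ± 0.11 in Ldb1-KO against WT (SE, limma adjusted p = 8.15e-07). Of 49 translation factors, 4 rose and 4 fell in Ldb1-KO, and 1 rose and 3 fell in Isl1-KO. Eef1a2, an elongation factor typical of neurons and muscle, averaged 4.58 ± 1.19 in Ldb1-KO and 2.78 ± 0.49 in WT libraries (SD, n = 8 and 5), a difference of 1.81 ± 0.48 (SE, limma adjusted p = 0.00748). Of 77 oxidative phosphorylation subunits tested, 5 rose and 2 fell in Ldb1-KO, and 0 rose and 4 fell in Isl1-KO.

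Of 31 regulators of ribosome synthesis tested, 2 rose and 4 fell in Ldb1-KO, and 0 rose and 3 fell in Isl1-KO against WT. Eif4ebp1, the translation repressor that mTOR inactivates, averaged 3.80 ± 0.49 in Ldb1-KO, 5.10 ± 0.54 in Isl1-KO and 5.69 ± 0.42 in WT libraries (SD, n = 8, 5 and 5). It fell by 1.89 in Ldb1-KO against WT (limma adjusted p = 1.16e-05). Mtor fell to 7.55 ± 0.11 in Ldb1-KO, against 7.97 ± 0.30 in WT libraries (SD, n = 8 and 5, limma adjusted p = 0.0301). Sesn1 and Ddit4, which restrain mTOR complex 1, rose by 0.62 and 0.79 in Ldb1-KO (limma adjusted p = 0.000192 and 0.00211), and Sesn2, which does too, fell by 0.69 (limma adjusted p = 0.0206). Larp1 differed by -0.15 in Ldb1-KO and 0.47 in Isl1-KO against WT, without passing the test, and Gabpa and Yy1 did not pass in either.

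Many host genes of small nucleolar RNAs are known to have a TOP start, but the starts of the host genes listed here were not examined. Of 12 tested, among which Eif4a2 and Nop56 also stand in other lists, 5 rose and 0 fell in Ldb1-KO against WT, and 0 rose and 2 fell in Isl1-KO against WT. The 5 in Ldb1-KO are 41.7% of the list, against 10.6% of all genes tested. The count was 3 without WT replicate 5, 3 with the replicate numbers as a block and 0 in the shallower libraries alone. The median difference in Ldb1-KO was 0.65, and all 12 were positive. Gas5 averaged 9.92 ± 0.09 in Ldb1-KO and 9.19 ± 0.41 in WT libraries (SD, n = 8 and 5), a difference of 0.73 ± 0.16 (SE, limma adjusted p = 0.0013). Snhg11 differed by 1.43 (limma adjusted p = 0.0105). Snhg5 differed by 0.68 and Snhg4 by 0.62 (limma adjusted p = 0.0109 and 0.0177). Their mean deviation was 0.46 to 0.75 in Ldb1-KO libraries, -0.11 to 0.37 in Isl1-KO libraries and -0.32 to 0.53 in WT libraries. Ldb1-KO replicate 3, the lowest library for the ribosomal proteins, lay at 0.46, and WT replicate 3, at 0.53, inside the Ldb1-KO range.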

How the data were processed

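Total RNA of sorted, lineage-marked β-cells was sequenced after rRNA removal with a ScriptSeq low-input kit, per the labels' protocols. The table deposited by the authors holds log2 values, read here as log2 of a quantile-normalized value plus 1, since all libraries share a minimum of 0 and 1 top value. This reading comes from the values. HOMER, edgeR and the mm9 build are named for the authors' work in the submitters' processing notes. The aligner and the counting: not given in the sources used here. Deposited p-values, FDR and log2 fold changes are the authors' own, with Isl1-KO against Ldb1-KO turned round in sign.

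Differences were tested with limma 3.58.1 in R 4.3.3 (trend and robust options) in 1 fit of 18 libraries. Genes needed a mean normalized value of at least 1, and p-values were adjusted over all 13501 genes by Benjamini-Hochberg at 0.05. The count test planned for raw counts was not used. The fit was tested on simulated data. Library totals were not used here, and relative depth was read as the mean step over the lowest 20 distinct values above 0 of each library. 0 columns of per-sample values were left unused. Members and lists were chosen with earlier results of these data known. Members given in every library were up to 6 called members a comparison with the largest change in each direction, paralogues, stalk proteins, Rpsa, Rpl5, Rpl11, and the 3 highest and 3 lowest by mean correlation. Some genes that this rule names, or that the fixed lists hold, are not reported here. Rpl15, Rpl29, Rpl38, Rpl8, Rps7, Rpl35a and Rpl37a were added after their values were seen. Start motifs and the run length were set after the members' start sequences were seen. LDB1 and ISL1 ChIP peaks are in mm9 and were not used, because the gene starts at hand are in another build.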

Additional observations from a re-analysis of the deposited data

Results flagged for a closer look

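Groups of 5 or 8 libraries were examined, 88 in all, over 28 named members and the mean deviations of all, large-subunit and small-subunit members. In these, 3 libraries stood far from the rest of their group, and chance gives about 1 in 20 groups. Rpl28 was at 2.86 in Ldb1-KO replicate 1, with the next library at 1.32. Rpl3l was at 1.90 in Isl1-KO replicate 3, with the other 4 Isl1-KO libraries listed at 0. Rps16 was at 0.94 in Isl1-KO replicate 4, with the other 4 Isl1-KO libraries listed at 0. All 3 are low values of a few count steps.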

How the results depend on the processing

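Of 833 member differences over the alternatives, 652 kept their direction and side of the threshold, 179 lost the call and 2 turned direction. Both of these came with Isl1-KO replicates 4 and 5 only, where Rpl22l1 differed by 0.053 against WT and Rpl15 by 0.020 against Ldb1-KO. The alternatives include fits that left out a library of the group not compared, which bear little on the call.

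Ldb1-KO against WT gave 12 members higher and 0 lower. Percentages in brackets are the shares of all genes called in that direction in the same setting. The higher count was 4 of 73 without a filter (5.10%), 4 in deeper (7.89%) and 0 in shallower libraries (5.80%). It was 5 in the authors' deposited table (8.24%), and 2 were lower in shallower libraries (6.31%). Leaving out each library gave 5 to 12 higher (8.52% to 11.3%) and 0 to 1 lower (8.75% to 11.5%). Isl1-KO against WT gave 1 higher and 3 lower. The higher count was 2 with a pseudocount of 10 (6.74%) and 0 without a filter (2.87%). It was 0 with replicates 1 to 3 only (9.80%) and 4 with replicates 4 and 5 only (3.78%). It was 0 in deeper (4.21%), 0 in shallower libraries (3.37%) and 3 in the deposited table (5.54%). The lower count was 1 without a filter (4.08%) and 1 with only the compared groups (6.97%). It was 10 with replicates 1 to 3 only (11.3%) and 1 with replicates 4 and 5 only (4.47%). It was 1 in deeper libraries (3.75%), and 1 without Ldb1-KO replicates 3 and 4 and WT replicate 4 (7.35%). Leaving out each library gave 0 to 2 higher (5.01% to 7.84%) and 1 to 4 lower (6.10% to 8.89%). Isl1-KO against Ldb1-KO gave 0 higher and 10 lower. The higher count was 1 with a pseudocount of 10 (6.46%) and 6 in shallower libraries (4.56%). It was 1 in the deposited table (4.53%) and 1 without the 3 libraries just named (6.52%). The lower count was 22 with replicates 1 to 3 only (12.4%) and 1 with replicates 4 and 5 only (1.13%). It was 2 in deeper (1.99%) and 2 in shallower libraries (3.41%). Leaving out each library gave 0 to 1 higher (3.85% to 7.64%) and 5 to 13 lower (4.16% to 8.94%). Why the counts moved between settings was not tested. A split leaves fewer libraries, and counts fell in some splits and rose in others.

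Whether the replicate numbers pair the samples was not settled. Same-numbered libraries correlated at -0.167 to 0.256 in 15 pairs, 4 of them above 0.1. Differently numbered libraries were not compared, so these values cannot decide it. With the replicate block, Ldb1-KO against WT gave 9 of 70 members higher and 1 lower, each beside 12.1% of all genes. The share of members called higher was there near the background. Isl1-KO against WT gave 0 higher and 3 lower, beside 7.79% and 8.16% of all genes. Isl1-KO against Ldb1-KO gave 1 higher and 6 lower, beside 5.69% and 5.33%. The members' median pair correlation was 0.334 under a filter of 10 on the mean value, 0.252 in the large and 0.421 in the small subunit, and 0.253 to 0.325 leaving out each library. Depth limits Rps16, Rpl28, Rpl3l and Rpl39l, which are listed at 0 in some libraries. The count tools listed as an alternative were not run, because the values are not counts.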
